A study of Mus musculus with 3 samples.

Results

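The 10 X-linked genes of blood and immune lineages, Btk, Was, Cybb, Il2rg, Cd40lg, Foxp3, Tlr7, Tlr8, Cxcr3 and P2ry10, were followed in LSD1 chromatin reads. They were taken by name, as lineage genes that fibroblasts and stem cells are held to keep silent. For each gene, all listed single-base sites in the gene body and 5 kb on both sides were used, and these 10 windows are 10 of the 1256 gene windows of chromosome X. Of the listed sites they held 992 of 411944 (fibroblasts), 502 of 186841 (LowK cells) and 254 of 119257 (MidK cells). LSD1 (Kdm1a), a histone demethylase, was precipitated with an antibody from sheared chromatin, and reads at variant positions were listed with the B6 base or the variant base.

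There was 1 library per group. MEF is mouse embryonic fibroblasts at day 0, without vector or Shield1. LowK is such fibroblasts that carried the reprogramming vector SeVdp(fKOSMaB), at day 20 and without Shield1. MidK is the same at day 20 with 30 nM Shield1, a ligand that protects proteins carrying a destabilising domain from degradation; in this vector family the domain is fused to KLF4. The sources used here give neither fibroblast strain, sex and passage nor from which strain the variant alleles come. The reads are DNA, so neither the labelled cell types nor the silence of the genes could be checked against expressed markers. A difference between libraries therefore has no replicate check, and no p-value was computed.

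LSD1 removes methyl groups from lysine 4 of histone H3 and works in corepressor complexes at enhancers and promoters. In blood formation it is recruited by the repressors GFI1 and GFI1B and helps to shut off genes of alternative lineages. The genes described here encode receptors, sensors, signalling proteins and a transcription factor of lymphocytes and phagocytes, and several are the causes of X-linked immune deficiencies.

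By allele, the MEF list held 883058 reads, the LowK list 295240 and the MidK list 203350, or 2.14, 1.58 and 1.71 reads per site. Members had 2194, 798 and 389 of these reads, that is 0.249%, 0.270% and 0.191% of each list. Read density is given below as listed reads per kb of window per 1000000 listed reads, with an exact 95% Poisson interval where one is stated. It counts only reads at listed positions, so a gene with few variant positions has a low density whatever its LSD1 signal. A single read over several sites is counted at each, and intervals cover counting error only and are too narrow. The B6 base of all 2260 listed sites in RefSeq promoters of chromosome X matched the RefSeq sequence, build GRCm38.p6, called mm10.

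The 10 genes lay close together in MEF and MidK and far apart in LowK. Their densities ran from 4.40 (Cxcr3) to 11.1 (Btk) in MEF, from 1.54 (P2ry10) to 17.7 (Cxcr3) in LowK and from 4.36 (Tlr7) to 8.79 (Was) in MidK. The highest was thus 2.52 times the lowest in MEF, 11.5 times in LowK and 2.01 times in MidK. Cxcr3 (66 reads) and P2ry10 (12 reads) set the LowK span, and the other members ran from 4.55 (Tlr7) to 16.4 (Foxp3). The same span was not computed for other sets of genes. Their medians were 7.82, 8.29 and 6.05, beside 6.97, 6.89 and 4.92 over all genes. Intervals lay apart from the median gene for 6 members in MEF, 8 in LowK and 3 in MidK. Over all genes that share was 68.5%, 69.4% and 54.5%, so the members' counts were near the background in MEF and LowK.

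**Figure D1:**
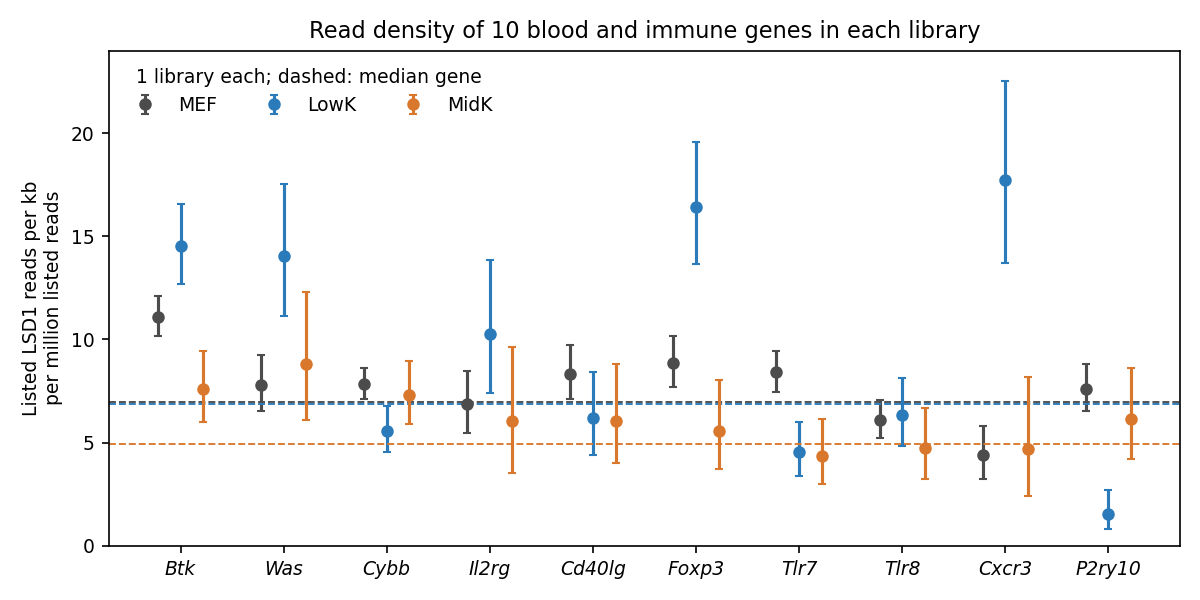
Read density (listed LSD1 reads per kb of window per 1000000 listed reads) of the 10 genes in MEF, LowK and MidK; points are single libraries, bars are exact 95% Poisson intervals and dashed lines are the median of all genes in each library. LowK spans the widest range, from P2ry10 at 1.54 to Cxcr3 at 17.7.

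Ratios between libraries were taken relative to the median tested gene, whereas densities are scaled by library totals. By library totals that gene lay at 0.09 (LowK over MEF), -0.43 (MidK over MEF) and -0.56 (MidK over LowK) on the log2 scale. The order of densities can therefore differ from the ratios, above all where MidK is compared. A gene was called when it differed at least 2-fold, the Poisson intervals of both shares did not overlap, and 1 of both libraries had at least 30 reads. In LowK over MEF, 1 of 10 members was called higher, Cxcr3, and 1 lower, P2ry10, beside 7.22% and 6.3% of the 1080 genes tested. In MidK over MEF none of the 10 was called in either direction, beside 9.35% higher and 9.81% lower of 1080. In MidK over LowK, 1 member was called higher, P2ry10, and 2 lower, Cxcr3 and Foxp3, beside 8.72% and 11.9% of 906 genes. Counts of 0 to 2 among 10 members lie near the background, and none is a result about the members as a group. All 3 calls in MidK over LowK ended with variant reads only and with sites thinned to 1 per 300 bp. P2ry10 then had log2 ratios of 2.22 and 2.28, with too few reads for a call, and Cxcr3 had -1.14 and -1.01, past 2-fold with overlapping intervals. Foxp3 had -0.78 and -0.91, under 2-fold. The members' median log2 ratios were 0.13, 0.09 and 0.01, where the median over all genes is 0 by construction. The first 2 comparisons share the MEF library, and the values of all 3 are therefore given side by side.

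**Figure D2:**
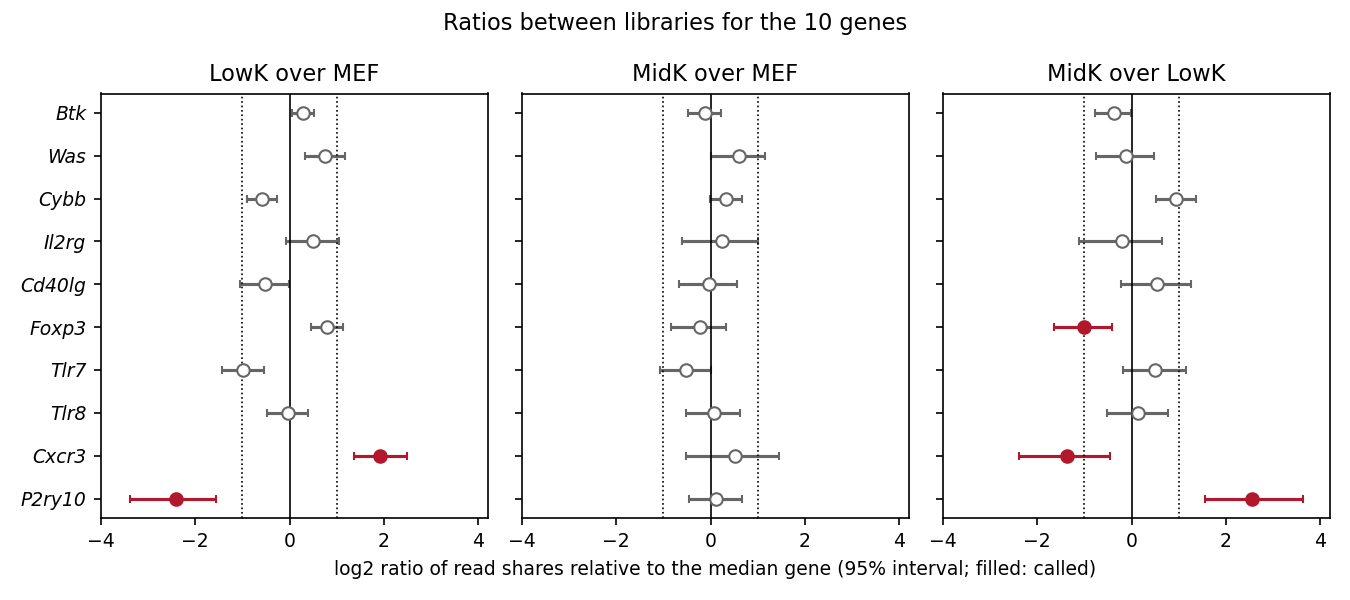
Log2 ratio of read shares for each gene in LowK over MEF, MidK over MEF and MidK over LowK, relative to the median gene; bars are exact 95% intervals, dotted lines mark 2-fold and filled points are called. Calls fall on Cxcr3 and P2ry10 in LowK over MEF and on those genes and Foxp3 in MidK over LowK.

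Cxcr3 (chrX:101731535-101734147) encodes the receptor through which activated T cells follow interferon-induced chemokines. Its MEF window held 49 reads (26 sites), its LowK window 66 (33 sites) and its MidK window 12 (11 sites). LowK was the high library although its list is much smaller than that of MEF: the densities were 4.40 (3.26 to 5.82), 17.7 (13.7 to 22.6) and 4.68 (2.42 to 8.17). Cxcr3 was the lowest of the 10 genes in MEF and the highest in LowK. The share rose 3.78-fold in LowK over MEF (2.57 to 5.59) and was lower in MidK over LowK (ratio 0.388, 0.191 to 0.725), while MidK over MEF was 1.44 (0.695 to 2.74) and not called. The LowK reads were spread over 16 clusters, counting sites less than 300 bp apart as 1 cluster, against 10 in MEF and 8 in MidK. The largest LowK cluster, 5 sites within chrX:101736369-101736675 and upstream of the gene, held 18 reads or 27.3%. With the deepest site alone of each cluster formed along the chromosome, 31 LowK, 26 MEF and 9 MidK reads were left. Then LowK over MEF was 1.54 on the log2 scale and still called, and MidK over LowK was -1.02 and not called.

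P2ry10 (chrX:107088492-107104974) encodes a lysophospholipid receptor of lymphocytes. It showed the reverse order, with 178 MEF reads (70 sites), 12 LowK reads (11 sites) and 33 MidK reads (21 sites). LowK was the low library, with a density of 1.54 (0.793 to 2.68) against 7.61 (6.53 to 8.82) in MEF and 6.13 (4.22 to 8.61) in MidK, and its interval did not reach those of the others. The share fell in LowK over MEF (ratio 0.189, 0.0959 to 0.339), was 1.09 in MidK over MEF (0.726 to 1.58) and rose 5.88-fold in MidK over LowK (2.96 to 12.5). The 12 LowK reads fell in 8 clusters, none with more than 2 reads. In MEF the reads fell in 25 clusters and in MidK in 15. The largest MEF cluster, 14 sites within chrX:107083522-107084738 and upstream of the gene, held 34 reads or 19.1%. With the deepest site of each cluster alone, the log2 ratios were -1.93 in LowK over MEF, still called, and 2.18 in MidK over LowK, where 24 and 9 reads were below the minimum. At sites with a reliability score of at least 20, MidK over MEF turned from 0.12 to -2.65 on the log2 scale (2 MidK reads) and was called lower.

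Neither call for these genes could be followed at the same positions. Only 7 Cxcr3 sites and 3 P2ry10 sites were listed in both MEF and LowK. At those sites Cxcr3 had 18 LowK and 15 MEF reads (log2 ratio 0.76), and P2ry10 had 4 and 6 (-0.09). Both were too few for a call. Counted as sites thinned to 1 per 300 bp, Cxcr3 had 18 in LowK and 13 in MEF and P2ry10 8 and 30, with log2 ratios of 1.36 and -1.02 and no call.

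The promoters of both receptor genes, from 250 bases before to 50 after the annotated start (RefSeq, GRCm38.p6), are shown because these genes carry the calls. RefSeq gives P2ry10 2 starts, and the second, which holds a listed site, is printed. They are written 5′ to 3′ in the direction of the gene, and capitals mark positions listed in any library.
Cxcr3, chrX:101734098-101734397, minus strand: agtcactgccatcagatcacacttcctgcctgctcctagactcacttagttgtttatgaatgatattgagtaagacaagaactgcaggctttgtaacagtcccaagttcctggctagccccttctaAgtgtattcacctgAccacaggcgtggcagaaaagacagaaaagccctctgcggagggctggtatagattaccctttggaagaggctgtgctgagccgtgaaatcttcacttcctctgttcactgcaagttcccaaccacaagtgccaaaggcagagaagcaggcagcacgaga
P2ry10, second start, chrX:107089083-107089382, plus strand: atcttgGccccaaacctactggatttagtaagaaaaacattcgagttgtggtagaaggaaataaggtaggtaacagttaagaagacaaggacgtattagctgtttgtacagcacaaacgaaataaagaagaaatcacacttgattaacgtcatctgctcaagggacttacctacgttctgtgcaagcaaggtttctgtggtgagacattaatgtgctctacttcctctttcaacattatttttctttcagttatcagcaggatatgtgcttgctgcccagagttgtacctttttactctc

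With positions counted from 1 at the 5′ end as printed, the Cxcr3 promoter held A127C and A141G, each with 2 variant reads and no B6 read in LowK. No Cxcr3 promoter site was listed in MEF or MidK. The P2ry10 sequence held G7A, with 1 variant read in MidK. Within 2 kb of the Cxcr3 start lay 18 MEF, 19 LowK and 3 MidK reads, or 36.7%, 28.8% and 25% of the window's reads from 31.7% of its length. The LowK reads of Cxcr3 were thus not gathered at the start: 33 lay upstream of the gene, 17 in its body and 16 downstream. Around the second P2ry10 start the counts were 10, 4 and 4.

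**Figure D3:**
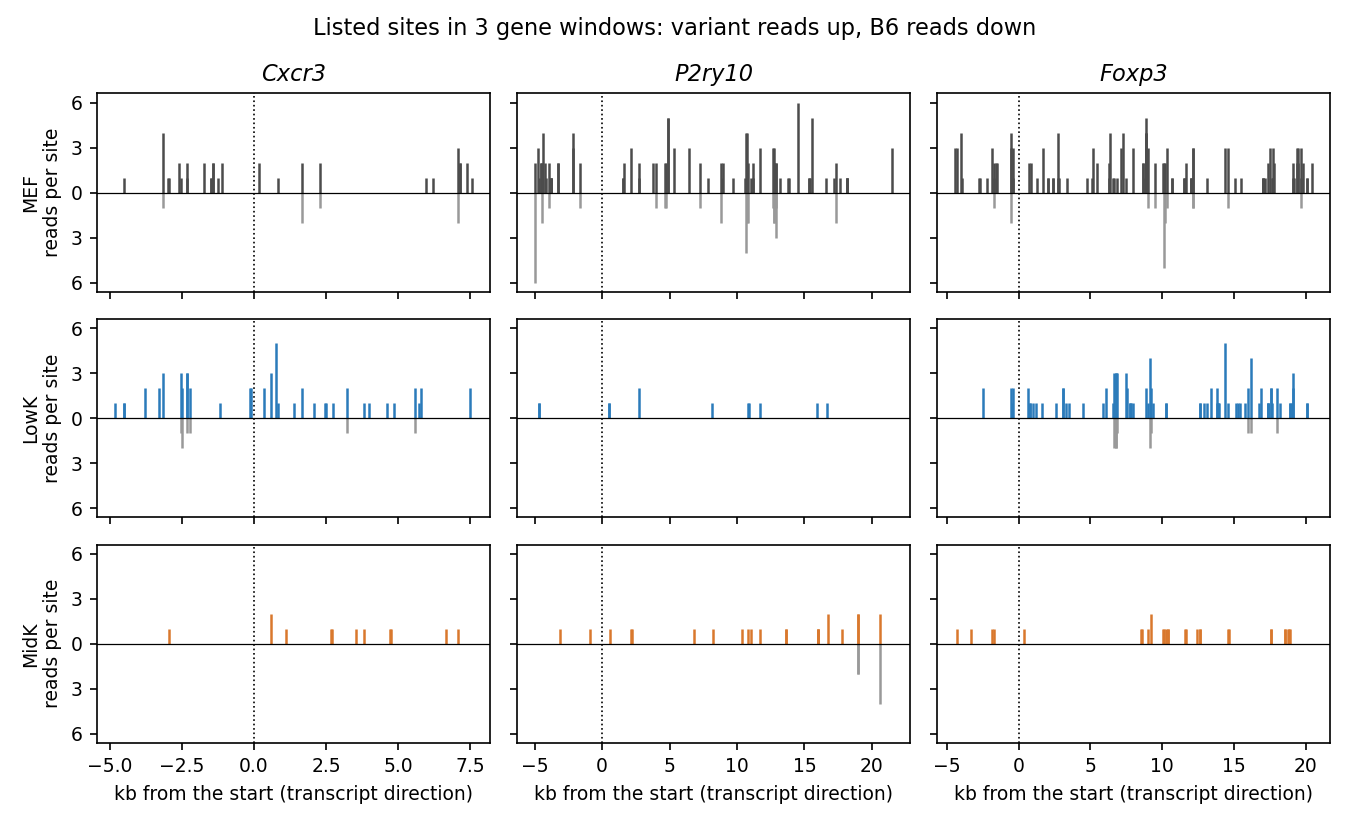
Listed sites in the windows of Cxcr3, P2ry10 and Foxp3 in MEF, LowK and MidK by distance in kb from the annotated start (dotted line; the first of those given for P2ry10 and Foxp3), in the direction of transcription; lines above 0 are variant reads and grey lines below 0 are B6 reads per site. P2ry10 has 11 sites in LowK against 70 in MEF, and Cxcr3 33 against 26.

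Foxp3 (chrX:7579676-7595243) encodes the transcription factor that defines regulatory T cells. It had 200 MEF reads (95 sites), 124 LowK reads (71 sites) and 29 MidK reads (28 sites). Its density was 8.86 in MEF, 16.4 (13.7 to 19.6) in LowK and 5.58 (3.74 to 8.01) in MidK, so that LowK stood above both. LowK over MEF was 1.74 (1.38 to 2.19) and MidK over MEF 0.850 (0.555 to 1.26), neither called. MidK over LowK was called lower at 0.4996 (0.321 to 0.754), right at the 2-fold threshold; the log2 ratio was -0.99 and no longer called with insertions and deletions included, and -0.78 with variant reads only. It was still called in the gene body alone (-1.21) and at a reliability score of at least 20 (-3.65, 2 MidK reads). At that score LowK over MEF was called higher (1.19) and MidK over MEF lower (-2.66), against 0.80 and -0.23 over all sites; LowK over MEF was also called in the gene body alone (1.04). The Foxp3 window overlaps those of Ccdc22, Ppp1r3f and the noncoding Flicr, and 90, 61 and 21 of its reads in MEF, LowK and MidK lay in the part shared with Ccdc22. The part shared with Flicr held 71, 25 and 5. In MidK over LowK on the log2 scale, Ccdc22 itself was at -0.63, Ppp1r3f at -0.61 and Flicr at -1.12, none called.

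Foxp3 has the most listed positions of the 10 member promoters. Its second start is printed in the same way.
Foxp3, second start, chrX:7580233-7580532, plus strand: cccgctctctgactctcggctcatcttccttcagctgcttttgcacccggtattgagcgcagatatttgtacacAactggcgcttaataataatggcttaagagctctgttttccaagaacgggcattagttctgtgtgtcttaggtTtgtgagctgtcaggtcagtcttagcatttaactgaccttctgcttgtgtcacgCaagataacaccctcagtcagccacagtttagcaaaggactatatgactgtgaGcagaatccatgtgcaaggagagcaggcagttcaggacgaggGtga

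MEF listed T148G and G297A there, each with 2 variant reads, and LowK listed A75C with 2 and C202T and G255C with 1 each. No B6 read was counted at these sites, and MidK listed none of them. RefSeq promoters were found for 8 of the 10 genes, 10 sequences in all, without Cd40lg and Tlr7. Their GC content ran from 32.3% (Tlr8) to 53.3% (Was) and their CpG count from 1 (Cybb, Tlr8) to 8 (Foxp3, second start), beside medians of 51% and 7 over the 1223 promoters of chromosome X. The motif GGAAGT, which ETS factors such as PU.1 can bind, was searched on both strands. It was found in 3 of the 10, with 2 matches each in Was and Cxcr3 and 1 at the second P2ry10 start, beside 23.3% of all 1223.

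Btk (chrX:134542334-134583628), the kinase of B-cell receptor signalling, had the most reads of the 10 genes, with 503 MEF, 220 LowK and 79 MidK reads. Its density was 11.1, 14.5 and 7.57, above the median gene in each library. LowK over MEF was 1.23 (1.04 to 1.44), MidK over MEF 0.921 (0.717 to 1.17) and MidK over LowK 0.767 (0.586 to 0.996), all under 2-fold. Of its sites, 4 were listed in all 3 libraries, all downstream of the gene. At the deepest, chrX:134541803, MEF had 4 variant and 2 B6 reads, LowK 4 and 0, and MidK 4 and 1. The broadly used genes Timm8a1, Rpl36a and Gla overlap its window and shared 111, 104 and 89 of its MEF reads. Its promoter held 5 reads at 1 site in MEF and 1 read at another site in MidK.

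Was (chrX:8081466-8090491) encodes the actin regulator of blood cells that is defective in Wiskott-Aldrich syndrome. It had 131, 79 and 34 reads in MEF, LowK and MidK, or densities of 7.80, 14.1 and 8.79, and LowK stood highest by library totals. The ratios were 1.69 in LowK over MEF (1.26 to 2.25), 1.52 in MidK over MEF (1.01 to 2.23) and 0.919 in MidK over LowK (0.596 to 1.39). In the gene body alone, 56 LowK and 57 MEF reads gave a log2 ratio of 1.55, which was called. In LowK 70.9% of its reads lay in the body, against 43.5% in MEF and 47.1% in MidK. Downstream of the gene its window overlaps that of Suv39h1, which was not called in any comparison. The shared part held 45 of its MEF, 7 of its LowK and 7 of its MidK reads.

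Cybb (chrX:9435252-9487766) encodes the heme-binding subunit of the phagocyte NADPH oxidase. It had 433 MEF, 103 LowK and 93 MidK reads, and LowK was the low library, with densities of 7.84, 5.58 and 7.32. LowK over MEF was 0.668 (0.533 to 0.829), MidK over MEF 1.26 (0.996 to 1.58) and MidK over LowK 1.93 (1.44 to 2.58). The last lay just under the threshold and was called in the gene body alone (log2 ratio 1.03). Of its MidK reads, 63 lay where the window overlaps that of the noncoding Gm33784, against 121 in MEF and 30 in LowK. Gm33784 was called higher in MidK over both other libraries, at 1.61 over MEF and 2.17 over LowK on the log2 scale. A cluster of 4 sites within chrX:9485100-9485223 held 21 of the 93 MidK reads.

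Il2rg (chrX:101264385-101268255), the common gamma chain of several interleukin receptors, had 84 MEF, 42 LowK and 17 MidK reads. Its densities were 6.86, 10.3 and 6.03, and its intervals overlapped in all pairs. The ratios were 1.40 (0.945 to 2.06), 1.19 (0.661 to 2.02) and 0.865 (0.462 to 1.55). Places within its window differed more than its totals: upstream of the gene lay 41 MEF, 5 LowK and 14 MidK reads, and in the body 19, 19 and 2. The window is shared with Med12, Foxo4 and Gm614, none of them called in any comparison.

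Cd40lg (chrX:57212143-57224042), the costimulatory ligand on helper T cells, had 161 MEF, 40 LowK and 27 MidK reads, at densities of 8.33, 6.19 and 6.06. Its ratios were 0.697 (0.480 to 0.991), 0.984 (0.629 to 1.49) and 1.44 (0.851 to 2.41), none called. A single site held 11 of its 27 MidK reads. Its window overlaps those of Gm14718 and Arhgef6, neither called in any comparison. The parts shared with them held 29 and 31 MEF, 3 and 7 LowK and 0 and 2 MidK reads.

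Tlr7 (chrX:167303380-167330574) and Tlr8 (chrX:167241123-167264329) encode neighbouring endosomal sensors of single-stranded RNA. Tlr7 had 276, 50 and 33 reads in MEF, LowK and MidK, and Tlr8 179, 62 and 32. The Tlr7 densities were 8.40 (7.44 to 9.46), 4.55 (3.38 to 6.003) and 4.36 (3.003 to 6.13), so that MEF stood above both other libraries by library totals. Relative to the median gene, the interval of MidK over MEF for Tlr7, given below, did not exclude equality. Those of Tlr8 were 6.10, 6.32 and 4.74, with overlapping intervals. In LowK over MEF, Tlr7 was at 0.508 (0.368 to 0.689), just short of 2-fold, and Tlr8 at 0.972 (0.716 to 1.30). With insertions and deletions included, Tlr7 passed the threshold there (log2 ratio -1.05), as it did at a reliability score of at least 20 (-1.46). Over MEF, MidK stood at 0.701 and 1.05 for them (0.473 to 1.01 and 0.696 to 1.53). MidK over LowK was 1.41 for Tlr7 and 1.10 for Tlr8. Tlr7 was called lower in MidK over MEF in the gene body alone (log2 ratio -1.25) and at that score (-2.21, 4 MidK reads), against -0.51 in the whole window. Tlr8 turned to -1.91 in MidK over MEF at that score (3 MidK reads) and was called lower. No other gene window overlaps either of these windows, nor those of Cxcr3 and P2ry10.

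Surroundings were compared as the 250 kb on each side of every window. In LowK over MEF, Btk, Was, Il2rg, Foxp3 and Cxcr3 were above the median gene, and so were their surroundings, at log2 ratios of 0.21, 0.66, 0.28, 0.58 and 0.44. Cybb, Tlr7, Tlr8 and P2ry10 were below it with surroundings at -0.12, -0.18, -0.16 and -0.15, and Cd40lg was below it (-0.52) with surroundings at 0.07. Sign of window and surroundings thus matched for 9 of 10 members, beside 62.9% of 1078 genes. These members are not independent. Surroundings overlap for Tlr7 and Tlr8, each holding the other's window, for Foxp3 and Was, and for Il2rg and Cxcr3. The Tlr8 window itself was at -0.04, so the count is a description only. In MidK over MEF it matched for 7 and in MidK over LowK for 6, beside 54.6% and 62.2%. Was and Foxp3 lie in gene-dense stretches, with 24 and 22 other genes within that distance, and Btk and Il2rg have 14 and 12, against a median of 7 over all genes. Cxcr3, with the highest ratio in LowK over MEF, has 6, P2ry10 4, Tlr7 and Tlr8 7 each, and Cybb and Cd40lg 8 each. The part of gene density and base composition in these ratios was not tested.

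In LowK over MEF the interval of the ratio to the surroundings excluded 1 for 5 members, Cxcr3 above and P2ry10, Tlr7, Cd40lg and Cybb below. These intervals cover counting error only and are too narrow. The share of all genes with such an interval was not computed, so the count is no result about the members. Relative to the 250 kb on each side, Cxcr3 was 2.79-fold higher in LowK over MEF (1.90 to 4.12) and at 0.341 in MidK over LowK (0.168 to 0.636). P2ry10 was at 0.210 in LowK over MEF (0.107 to 0.377) and 3.77-fold higher in MidK over LowK (1.90 to 8.01). Smaller ratios in LowK over MEF were those of Tlr7 at 0.577 (0.418 to 0.782), Cd40lg at 0.666 (0.459 to 0.947) and Cybb at 0.727 (0.580 to 0.903). For Foxp3 the ratio to its surroundings in MidK over LowK was 0.670 (0.431 to 1.01). For MidK over MEF the ratio to the surroundings ran from 0.736 (Il2rg) to 1.22 (Tlr8), and each interval included 1.

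**Figure D4:**
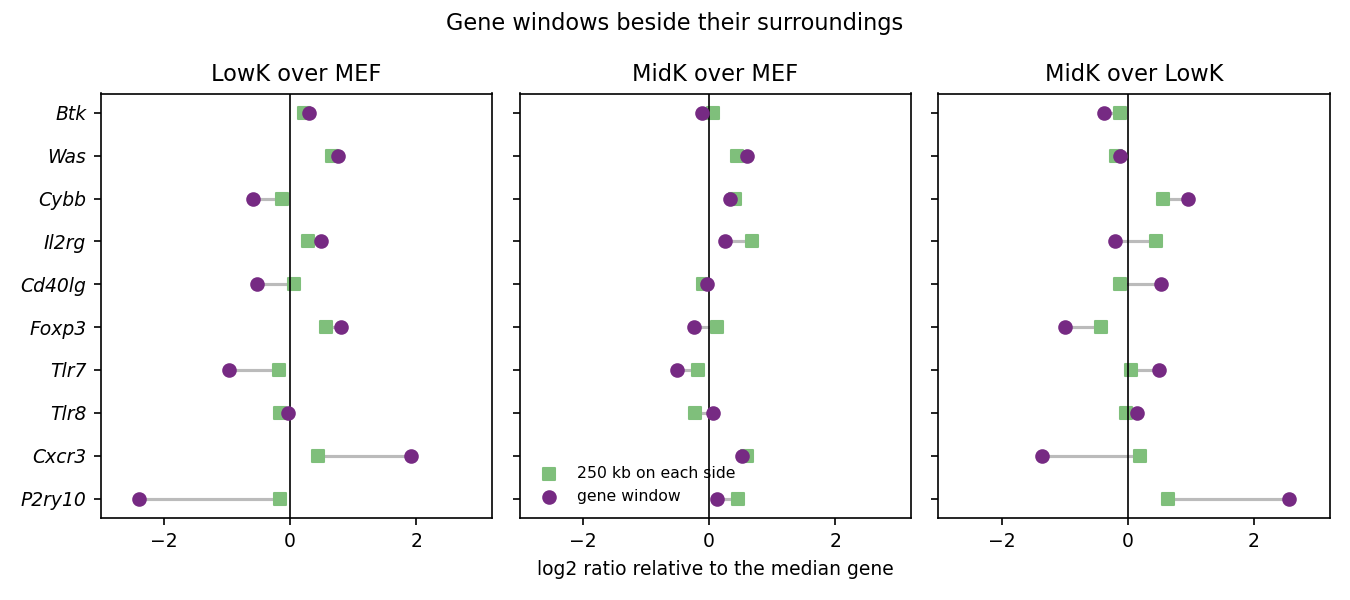
Log2 ratio of each gene window (circle) and of the 250 kb on each side of it (square), relative to the median gene, in the 3 comparisons, 1 library per group. Circle and square lie far apart for Cxcr3 (1.92 and 0.44) and P2ry10 (-2.40 and -0.15) in LowK over MEF.

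Along the chromosome P2ry10 sits among other G protein-coupled receptor genes. Its nearest relative, P2ry10b, had 180, 39 and 23 reads in MEF, LowK and MidK, and a ratio of 0.608 (0.419 to 0.863) in LowK over MEF. Gpr174 was at 0.674 (0.521 to 0.863) and the lysophosphatidic acid receptor gene Lpar4 at 0.532 (0.345 to 0.795), none of them called. Cysltr1, a leukotriene receptor gene, was called lower at 0.496 (0.351 to 0.685), as was Itm2a at 0.312 (0.156 to 0.567). The stretch from Cysltr1 to Itm2a also holds Gm5127 (0.758, 0.653 to 0.878) and Rtl3 (0.969, 0.652 to 1.41), so that all 8 genes had ratios below the median gene in LowK over MEF, with P2ry10 lowest. The interval of Rtl3 included 1. The stretch was named with earlier results known and ends at Cysltr1 and Itm2a, both called lower. The windows of Cysltr1 and Gm5127 overlap, so they share reads. Over all tested genes 539 lay below the median gene and 539 above it, by construction. The count of 8 is therefore a description only. MidK over MEF put 6 of the 8 below the median gene, with Itm2a (0.0543, 1 MidK read) and Rtl3 (0.320, 6 MidK reads) called lower, and P2ry10 (1.09) and Gm5127 (1.59, not called) above it.

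The companion lists, also chosen with earlier results known, held 17 other genes listed under blood lineages and 10 listed under broadly used immune signalling. Whether each gene is restricted to blood cells, or silent in fibroblasts, was not checked, also for Il13ra2, Nox1 and Bmx among the 17. In LowK over MEF, 1 of the 17 was called higher, Pim2, a survival kinase gene (2.77-fold, 2.02 to 3.81), and 2 lower, Cysltr1 and the decoy receptor gene Il13ra2 (0.478, 0.361 to 0.624). In MidK over MEF, Vsig4, a complement receptor gene of macrophages, was higher (2.79-fold, 2.18 to 3.56) and Sh2d1a, the adaptor gene SAP, lower (0.434, 0.233 to 0.747). In MidK over LowK, Vsig4 was higher (2.35-fold) and Pim2 lower (0.391, 0.209 to 0.683). Of the signalling genes, Irak1, a kinase gene of Toll-like receptor signalling, was higher in LowK (2.20-fold, 1.62 to 2.98) and MidK (3.85-fold, 2.79 to 5.29) over MEF. In MidK over LowK, Il13ra1 (2.01-fold) and Nkrf (2.59-fold) were higher and Ikbkg, the NEMO gene, lower (0.477). Counts of 0 to 2 among 17 or 10 genes are near the shares over all genes given above, 7.22% higher and 6.3% lower, 9.35% and 9.81%, and 8.72% and 11.9% in the same order of comparisons. The lists' median log2 ratios were -0.15, -0.27 and 0.30 for blood lineages and -0.26, -0.03 and 0.31 for signalling, in the order LowK over MEF, MidK over MEF and MidK over LowK. Gata1, the erythroid master regulator, and Alas2, its heme synthesis target, were not called in any comparison. Both came closest to the threshold in MidK over MEF, Gata1 at 1.92 (1.49 to 2.45) and Alas2 at 0.515 (0.299 to 0.835).

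Genes with the most similar pair of ratios over MEF were found by Euclidean distance among 1064 genes over the 3 libraries. For Cxcr3 they were Gm39494, Gm6812 and Gm5640, for P2ry10 H2al1m, Olfr1322 and Tgif2lx1, and for Foxp3 Pnck, Efnb1 and Gm52427. H2al1m, nearest to P2ry10, had 59, 4 and 13 reads, and the distances were 0.16 to 0.18 for Cxcr3, 0.25 to 0.57 for P2ry10 and 0.02 to 0.03 for Foxp3.

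By allele, most member reads carried the variant base, as each listed site has at least 1 such read. The B6 base was on 308 of 2194 MEF reads (14.0%, exact Clopper-Pearson interval 12.6% to 15.6%). It was on 58 of 798 LowK reads (7.27%, 5.57% to 9.30%) and on 62 of 389 MidK reads (15.9%, 12.4% to 20.0%). Over all gene windows the shares were 14.6%, 10.3% and 19.3%. LowK was thus the low library for the members and for all genes. The members lay below all genes in LowK, with intervals of 5.57% to 9.30% and 10.1% to 10.5%. At a reliability score of at least 20 the LowK shares were 11.8% (8.90% to 15.2%) for the members and 14.5% (14.2% to 14.8%) for all genes, and these intervals overlapped.

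Members differed among themselves in LowK, in B6 share and in reads per site. A site with 1 read always shows the variant base, so low depth limits the share. Reads per site were 1.75 to 2.21 for Il2rg, Was, Cxcr3 and Foxp3, and 1.09 to 1.38 for Cybb, Tlr7, Cd40lg, Tlr8 and P2ry10. Btk lay between, at 1.67 with 6.82% B6 reads. The part of reads per site in the B6 shares was not tested. Il2rg had 9 B6 of 42 reads (21.4%, 10.3% to 36.8%), Was 9 of 79 (11.4%), Cxcr3 7 of 66 (10.6%) and Foxp3 13 of 124 (10.5%). Cybb had 1 of 103 (0.971%, 0.0246% to 5.29%), Tlr7 1 of 50 (2%), Cd40lg 1 of 40 (2.5%) and Tlr8 2 of 62 (3.23%). P2ry10 had 0 of 12 reads at 11 sites, which by count alone allows a share of up to 25%. Each site needs 1 variant read to be listed, so this count of 0 was nearly fixed in advance. In MEF the same 5 genes had 15.0%, 17.8%, 15.5%, 8.38% and 20.2% B6 reads. The intervals of MEF and LowK did not overlap for Cybb and Tlr7, but the share of all genes with such intervals was not computed. Reads per site fell too, from 2.19 to 1.32 for Cybb and from 2.26 to 1.32 for Tlr7. Over all gene windows the B6 share fell from 14.6% to 10.3%. Reads over several sites are counted at each, so these intervals are too narrow. In MidK, Foxp3 had 0 B6 of 29 reads at 28 sites, and Cxcr3 0 of 12 at 11 sites. By count alone these allow up to 10.3% and 25%, but the listing rule nearly fixed them at 0 as well. Cybb had 19 of 93 reads in MidK (20.4%, 12.8% to 30.1%). The 8 B6 reads of Cd40lg in MidK were all at 1 site.

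**Figure D5:**
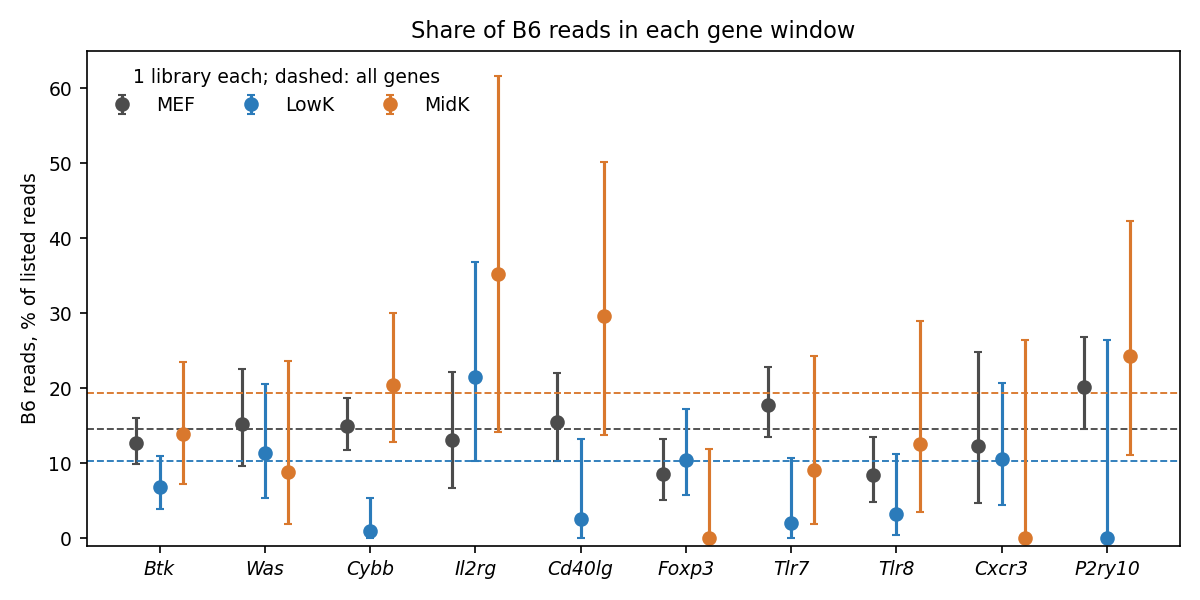
Share of B6 reads among listed reads (%) in the window of each gene in MEF, LowK and MidK, 1 library each; bars are exact 95% Clopper-Pearson intervals and dashed lines the share over all gene windows. In LowK, Cybb, Cd40lg, Tlr7, Tlr8 and P2ry10 are at or below 3.23%, while Il2rg reaches 21.4%.

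Few member sites had 2 or more reads from both alleles, 5 to 20 reads in all and no tie, taken 1 per 300 bp. A variant majority was counted in MEF for 11 of 30 of them (36.7%, 19.9% to 56.1%). LowK had 4 of 5 (80%, 28.4% to 99.5%) and MidK 2 of 7 (28.6%, 3.67% to 71.0%). Over all genes the values were 47.5%, 47.2% and 24.3%, inside the members' intervals in each library. All 6 Tlr7 sites in MEF had a B6 majority (0% variant, 0% to 45.9%), against 4 of 8 Btk sites and 3 of 6 Cybb sites with a variant majority.

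Libraries listed mostly different positions in the members. Of the LowK sites, 22.5% were also listed in MEF, and of the MEF sites 11.4% in LowK. For MidK these shares were 19.3% and 4.94%. Only 7 positions were listed in all 3 libraries, 4 in the Btk, 2 in the Foxp3 and 1 in the Tlr7 window.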

How the data were processed

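LSD1 ChIP DNA of 3 mouse libraries, 1 per group, was listed for chromosome X; groups came from the titles. Per the submitters' processing notes, reads were aligned with BWA to mm10, and the design text names bcftools mpileup for the variant calls. The sources used here give no versions, read filters or handling of duplicates. Per the file headers, the deposited values are counts of reads with the B6 and with the variant base at each position. The deposited reliability score, whose scale is unexplained and whose header differs for MidK, was used in 1 alternative. No input library was used here.

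Single-base sites were kept, without positions listed more than once. Windows were RefSeq gene bodies (GRCm38.p6) plus 5 kb on both sides for 1256 protein-coding, long noncoding and antisense genes. Ratios use shares of all listed reads relative to the median tested gene. That gene lay at 0.09 (LowK over MEF), -0.43 (MidK over MEF) and -0.56 (MidK over LowK) on the log2 scale by library totals. Calls need 2-fold, Poisson intervals apart and 30 reads, and were tested on simulated independent Poisson counts. Such counts leave out that a single read can be counted at several sites. They therefore do not show how often the rule calls unchanged genes in these libraries. Members, companion list and named genes (all members, called companions, overlapping, neighbouring and nearest genes) were chosen with earlier results of these data known. Python 3.11.15, pandas 2.3.3 and scipy 1.17.1 were used. Alternatives changed scaling, sites, window, score, allele and minimum; the deepest-site alternative was chosen after seeing the data.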

Additional observations from a re-analysis of the deposited data

Results flagged for a closer look

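Insertion, deletion and doubly listed entries, which the read shares leave out, were present in the member windows, with 297 MEF, 86 LowK and 52 MidK reads. There were no control samples, and each count is above the 3 reads that a count of 0 allows. They made up 10.1%, 9.71% and 9.93% of the entries in these windows.

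Members on opposite sides of the median gene in LowK over MEF and in MidK over MEF were Btk, Cybb, Foxp3, Tlr8 and P2ry10, with 1 library each, and the difference was not tested. As MidK over LowK on the log2 scale it was -0.38 for Btk, 0.95 for Cybb, -1.001 for Foxp3, 0.14 for Tlr8 and 2.55 for P2ry10. In MidK over MEF the 95% interval of the ratio included 1 for each of these genes.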

How the results depend on the processing

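Calls of Cxcr3 higher and P2ry10 lower in LowK over MEF were kept by library totals (log2 ratios 2.01 and -2.31), 1 site per 300 bp with all its reads (1.83 and -1.50), a reliability score of at least 20 (2.50 and -4.07), variant reads only (1.86 and -2.16) and the deepest site per cluster (1.54 and -1.93). With thinned sites each counted once, 0 members were called higher and 0 lower in LowK over MEF (7 members tested) and in MidK over LowK (2 tested), where 0% and 0.18%, and 0% and 0.562%, of all tested genes were called. With only sites listed in both libraries there were also 0 and 0 calls, with 3 members tested in LowK over MEF (1.97% and 0.219% of all genes called) and 0 tested in MidK over LowK, so these zeros say little about the members. In MidK over LowK there were also 0 higher and 0 lower calls on thinned sites that keep their reads, beside 3.89% and 3.71% of all tested genes. The same held on variant reads only, beside 4.52% and 10.2%. The deepest site per cluster gave 0 higher and 1 lower there, beside 2.98% and 5.25%. The gene body alone gave 2 higher of 8 members tested in LowK over MEF (Foxp3, Was), beside 10.2% of all tested genes. P2ry10 stayed called lower there (-2.11), beside 6.61%. Cxcr3, with 17 LowK and 10 MEF body reads (2.34), had too few for a call, so its call needs the 5 kb on both sides. In MidK over MEF 1 of 8 was lower (Tlr7), beside 7.9%. In MidK over LowK 1 of 6 was lower (Foxp3), beside 14.3%, and 1 higher, Cybb and not P2ry10, beside 7.74%. The reliability score gave 4 higher and 3 lower of 10 members in LowK over MEF, beside 15.4% and 12.3% of all tested genes. P2ry10 had 2 LowK and 138 MEF reads there. In MidK over MEF the score gave 4 lower of 10, beside 18.7%, and Tlr8 (-1.91, 3 MidK reads) and P2ry10 (-2.65, 2 MidK reads) reversed. More genes were thus called under this setting over all genes as well. The members' B6 share became 11.8% in LowK and 25.4% in MidK, beside 14.5% and 26.1% over all genes. All entries gave 2 lower in LowK over MEF and 1 lower in MidK over LowK, beside 6.73% and 12.1% of all tested genes. P2ry10 in MidK over LowK reversed at sites listed in both (-0.032, 1 read each). The cause was not tested, beyond fewer reads reaching the minimum under thinning. By library totals the members' calls were as counted before, while all genes were called 4.44% higher and 21.3% lower in MidK over MEF and 2.65% and 29.1% in MidK over LowK. No paired analysis was possible because each group holds 1 library, and no library could be left out. Windows of 12 reads limit what MidK and LowK can show for Cxcr3 and P2ry10.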
